A study of Mus musculus with 8 samples.

Results

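The genes described here encode 7 proteins of the lens fibre cell, measured in whole retinas of aged mice. They were Bfsp1 and Bfsp2, which encode the intermediate filament proteins of the fibre cytoskeleton, Mip, Lim2 and Gja3, which encode membrane proteins, and Lgsn and Grifin, which encode fibre proteins of neither kind. The members were found by matching the accession of each array probe to RefSeq transcripts (GRCm38.p6), which gave 11 probes for the 7 genes, of 22911 genes named on the array and 56605 probes that were not controls. The genes lie on 7 different chromosomes, Lgsn on 1, Bfsp1 on 2, Grifin on 5, Lim2 on 7, Bfsp2 on 9, Mip on 10 and Gja3 on 14, which also carries Abcc4. One group held 4 samples from homozygous Mrp4 knockout mice and the other 4 samples from wild-type (WT) mice, each hybridized to 1 one-color array, and the study asked how the lack of the efflux transporter MRP4 (gene Abcc4) changes gene expression in the aged retina. All mice were 46 to 55 weeks old by the sample labels, and the knockout was kept on a C57BL/6J background. The labels name no treatment. The methods name tissue of 3 mice without saying whether each sample pooled them, so the p-values measure the spread between these samples.

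The lens is built from an epithelium and from fibre cells, which elongate, lose their nuclei and organelles, and persist for life. Fibre cells carry a cytoskeleton of beaded filaments, made of filensin (Bfsp1) and phakinin (Bfsp2), and a plasma membrane rich in aquaporin 0 (Mip), the lens membrane protein MP20 (Lim2) and connexins such as connexin 46 (Gja3). Crystallins fill their cytoplasm. The neural retina has no fibre cells, although several crystallins, foremost αB-crystallin, are also made by retinal cells.

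The tissue label was borne out by the markers of retinal neurons and glia. All 14 listed genes, among them Gnat1 (rod transducin) and Glul (glutamine synthetase of Müller glia), had a retained probe, and their mean normalized log2 signal lay between 14.22 and 14.36 on the 8 arrays. The targeted gene went against the label of its group. Abcc4, on its 1 probe (A_52_P630867), had a normalized log2 signal of 10.75 ± 0.09 (SD, n = 4) under the knockout label and of 6.83 ± 0.29 (SD, n = 4) in WT, so it was 15.1-fold higher under the knockout label (limma, adjusted p = 1.36e-05). Where this probe lies relative to the disrupted part of the gene is not given in the sources used here, and every direction below follows the labels as deposited. The 8 arrays lay on 1 slide and were read in 1 scan, with the labelled genotypes in different rows of the slide, so slide row and genotype cannot be told apart. The share of probes well above background was 66.0% to 69.9% per array. The 75th percentile of the processed signal ranged from 497 to 786, with the lowest values on the second knockout-labelled array and the third WT array.

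Of the 11 lens fibre probes, 8 were well above background on every array of at least 1 group and were retained, and they stood for 6 of the 7 genes. Gja3 had no retained probe. Both Bfsp1 probes and both Bfsp2 probes are among the 8. The probes of each gene followed each other (r = 0.989 and 0.995), so counts of probes repeat these genes. Of the 8, 6 were well above background on all arrays, while Mip and the Bfsp1 probe A_51_P129038 passed only through the WT arrays, where their signal was higher, so that their direction was favoured by the filter and the counts that include them are descriptions. The mean signal was lower under the knockout label on 8 of 8 retained probes, against 53.2% of all retained probes, with a median log2 difference (labelled Mrp4-null minus WT) of -1.48, against -0.01 over all 37085. The mean was at least 1.5-fold lower on 8 of the 8, against 0.801% of all retained probes, and at least 2-fold lower on 7, against 0.28%. The genes were chosen with earlier results of these data known, so these shares are descriptions and no independent support. With the probes well above background on all arrays alone, 6 of 6 were lower on average, with a median of -1.41. With the normexp background correction the median was -0.83. No lens fibre probe was called changed (0 of 8) by limma (1.5-fold or more with the adjusted p below 0.05), where 0.545% of all retained probes were called. An unadjusted p under 0.05 was found for 5 of the 8, and for 4 of the 6 well above background on all arrays, against 6.46% of all retained probes. With 1 probe a gene it was found for 3 of the 6 genes.

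**Figure D1:**
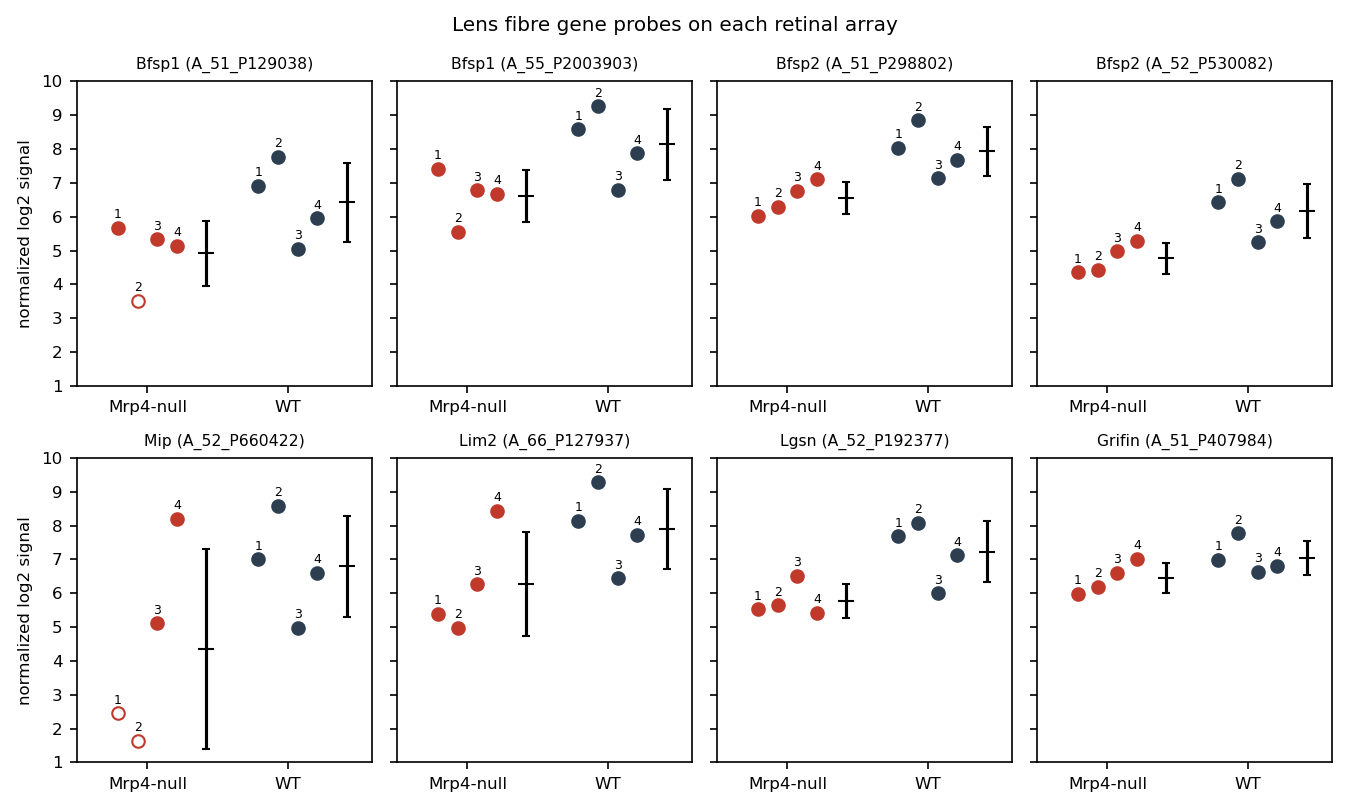
Normalized log2 signal (vertical axis) of the 8 retained lens fibre probes on each of 8 arrays, with the sample number beside each point, open circles for values not well above background, and the mean and SD of each group as a bar at its right. WT 2 is the highest point in every panel, and only the Bfsp2 probe A_51_P298802 has groups that do not overlap.

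The promoters of the genes were searched because most of the genes varied together across arrays. The RefSeq promoter table (GRCm38.p6) held 8 windows for the 7 genes, with Gja3 represented by 2, and the 250 bases before each transcript start were read on the strand of the gene. The core of sites bound by MAF factors, TGCTGA on either strand, was found in 4 of the 8 windows, those of Bfsp1, Mip, Lim2 and Lgsn, where 16.1% of all 32851 windows hold it. The core of the heat shock element, GAANNTTC, was in 0 of 8 windows and in 6.69% of all. The windows of the membrane protein genes Mip and Lim2, whose signals followed each other most closely, are shown whole, with the MAF core in capitals.
Mip, chr10:128225560-128225809, plus strand: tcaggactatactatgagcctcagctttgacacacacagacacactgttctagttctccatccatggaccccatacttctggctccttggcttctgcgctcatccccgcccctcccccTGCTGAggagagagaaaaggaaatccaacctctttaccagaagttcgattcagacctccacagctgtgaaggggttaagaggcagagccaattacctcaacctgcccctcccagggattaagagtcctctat
Lim2, chr7:43429849-43430098, plus strand: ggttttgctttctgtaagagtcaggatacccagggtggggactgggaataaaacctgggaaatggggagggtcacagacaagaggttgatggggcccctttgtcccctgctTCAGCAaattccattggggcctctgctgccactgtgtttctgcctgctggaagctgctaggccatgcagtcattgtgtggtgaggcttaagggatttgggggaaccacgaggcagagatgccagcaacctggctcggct
For Bfsp1 and Lgsn, the other genes whose window held it, the bases around the MAF core are shown.
Bfsp1, chr2:143863344-143863371, minus strand: ccgagacagccTCAGCAacatggtatta
Lgsn, chr1:31176389-31176416, plus strand: cctgaagccatTGCTGAagggagtgtgg
The MAF core began 132 bases before the start in Mip, 139 in Lim2, 187 in Bfsp1 and 35 in Lgsn. A match describes these letters only. The windows of Bfsp2, Gja3 and Grifin did not hold it.

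Bfsp1 encodes filensin, which assembles with phakinin into the beaded filament. Its probe A_55_P2003903, designed on the transcript NM_001291061, gave normalized log2 signals of 7.42, 5.56, 6.79 and 6.69 on the first to the fourth array labelled Mrp4-null. On the WT arrays it gave 8.59, 9.27, 6.80 and 7.89. The third WT array lay within the range of the arrays labelled Mrp4-null and the other 3 lay above it. The mean was 2.88-fold lower under the knockout label (95% interval 1.21 to 6.87), a log2 difference of -1.53 (SE 0.55, limma adjusted p = 0.590). The second probe, A_51_P129038 on NM_009751, had a log2 difference of -1.51 (SE 0.64, limma adjusted p = 0.740) and passed the detection call on 3 of 4 arrays under the knockout label and on all 4 in WT. Without the second array labelled Mrp4-null, where it was not well above background, its difference was -1.04, and with the normexp background correction it was -0.78. Both Bfsp1 probes followed each other over the 8 arrays (Pearson's r = 0.989).

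Bfsp2 encodes phakinin, the partner of filensin. Its probe A_51_P298802 gave 6.03, 6.30, 6.78 and 7.12 under the knockout label against 8.04, 8.85, 7.14 and 7.69 in WT. This was the only lens fibre probe whose groups did not overlap, by a gap between the fourth array labelled Mrp4-null and the third WT array that was small beside the spread (two-sided exact permutation, p = 0.0286, which is the lowest this design can give). The same held for 4.79% of all retained probes. The mean was 2.60-fold lower under the knockout label (95% interval 1.45 to 4.64), with a log2 difference of -1.38 (SE 0.37, limma adjusted p = 0.290). The probe A_52_P530082, on the same transcript, had a log2 difference of -1.40 (SE 0.39, limma adjusted p = 0.326; -0.63 with the normexp background correction) and an overlap of the groups, with 5.30 on the fourth array labelled Mrp4-null and 5.24 on the third WT array. Both Bfsp2 probes had r = 0.995 over the arrays.

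Mip encodes aquaporin 0, the water channel and the most abundant membrane protein of the fibre cell. The processed signal of its probe A_52_P660422, before normalization, was 6.91, 2.73, 41.3 and 324 under the knockout label against 140, 451, 26.5 and 80.7 in WT. The first and the second array labelled Mrp4-null were not well above background, while the fourth was exceeded by 1 WT array alone. After normalization the log2 signals were 2.45, 1.64, 5.11 and 8.21 under the knockout label and 7.001, 8.59, 4.98 and 6.60 in WT. The arrays labelled Mrp4-null thus spanned a 95.1-fold range and the WT arrays a 12.2-fold range, with the low end of the former below the detection limit. The log2 difference was -2.44 (SE 1.39, 95% interval -5.60 to 0.72, limma adjusted p = 0.938). It had the widest interval of the lens fibre probes, and its size rests on values taken at face value on 2 arrays where it was not detected. With values not well above background set to the lowest detected signal of their array it was -1.62, with the normexp background correction it was -0.79, and without the fourth array labelled Mrp4-null it was -3.73, none of them called.

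Lim2 encodes MP20, an integral membrane protein of fibre cell junctions. Its probe A_66_P127937 gave 5.39, 4.98, 6.26 and 8.44 under the knockout label against 8.15, 9.29, 6.44 and 7.73 in WT. The fourth array labelled Mrp4-null lay above 3 of the 4 WT arrays, and the other 3 lay below all of them. The log2 difference was -1.63 (SE 0.81, 95% interval -3.48 to 0.22, limma adjusted p = 0.865), and -1.06 with the normexp background correction. With 1 array left out it lay between -2.36, without the fourth array labelled Mrp4-null, and -1.17, without the second WT array. A further Lim2 probe, A_51_P487028, had processed signals of 2.46 to 18.6 and was well above background on 1 array of each group, so it was not retained. With no filter on dim probes its log2 difference was 0.11 (SE 0.69, limma adjusted p = 1.00), which has the other sign and lies within its error.

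Gja3 encodes connexin 46, which joins neighbouring fibre cells in gap junctions. Its probe A_52_P17582 had processed signals of 2.91, 3.03, 9.93 and 29.4 under the knockout label against 17.7, 42.7, 3.84 and 6.08 in WT. It was well above background on the fourth array labelled Mrp4-null and on the first and the second WT array, which were also the 3 arrays with the highest Mip signal. The probe A_55_P2934567 passed the detection call on 0 of 8 arrays, with processed signals of 3.19 to 13.4. No level of Gja3 can be compared between the groups from these probes. With no filter on dim probes the log2 differences were -0.89 (SE 0.92) and -0.18 (SE 0.39), both with an adjusted p of 1.00 by limma.

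Lgsn encodes lengsin, a lens protein related to glutamine synthetase. Its probe A_52_P192377 gave 5.54, 5.65, 6.52 and 5.43 under the knockout label against 7.69, 8.09, 6.01 and 7.13 in WT. The groups overlapped only through the third array labelled Mrp4-null and the third WT array. The mean was 2.72-fold lower under the knockout label (95% interval 1.37 to 5.42), with a log2 difference of -1.44 (SE 0.44, limma adjusted p = 0.404), which was -0.88 with the normexp background correction. Grifin encodes a galectin-related protein found between fibre cells that does not bind sugar. The signals of its probe A_51_P407984, 5.99, 6.19, 6.60 and 7.02 under the knockout label and 6.99, 7.77, 6.64 and 6.81 in WT, differed least among the retained lens fibre probes, with a mean 1.52-fold lower (95% interval 0.961 to 2.40) and a log2 difference of -0.60 (SE 0.29, limma adjusted p = 0.841). Without the second WT array the difference of Grifin was -0.36.

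**Figure D2:**
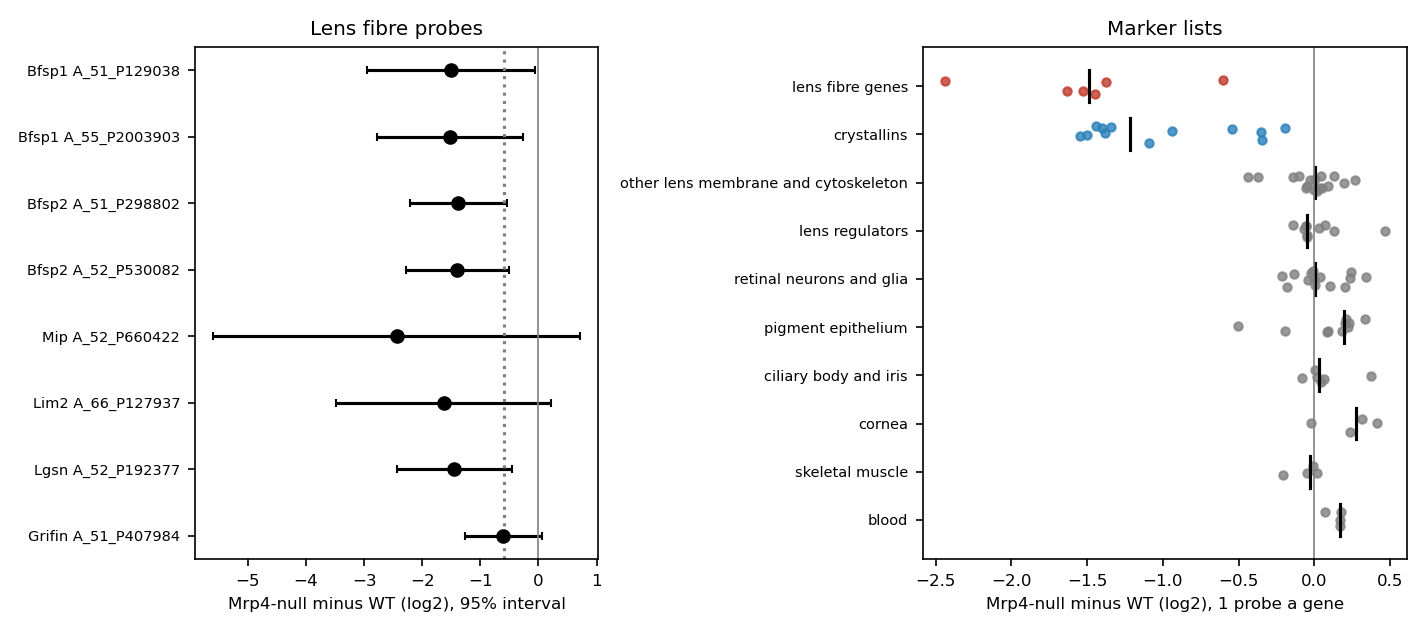
Left, the log2 difference between the arrays labelled Mrp4-null and the WT arrays (horizontal axis) for the 8 retained lens fibre probes with 95% intervals from limma, a solid line at 0 and a dotted line at a 1.5-fold decrease. Right, the same difference for each gene of the marker lists, 1 probe a gene, with the list median as a bar: the lens fibre genes have a median of -1.49 and the crystallins of -1.22, while the other lists lie around 0.

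The local pooled error (LPE) test, which the methods name, gave another count. It was used here with an adjusted p below 0.05, whereas the methods set a threshold on the LPE p and name no adjustment. It takes the variance of a probe from probes of similar signal and not from its own replicates. By this test 7 of the 8 lens fibre probes were called lower under the knockout label, all but Grifin, where it called 0.647% of all probes tested in either direction and 0.345% lower. The 7 include Mip and the Bfsp1 probe A_51_P129038, which passed the filter through the WT arrays alone, and of the 6 probes well above background on all arrays it called 5. The LPE adjusted p was 1.42e-16 for Mip, 2.05e-13 for Lim2 and 1.50e-09 for Lgsn, and it was 1.00 for Grifin. The unadjusted LPE p of Grifin was 0.0488, and its difference of medians was -0.51 on the log2 scale, less than 1.5-fold. The test took the fold change from medians here. The mean of Grifin was 1.52-fold lower, so the fold of means and this unadjusted p would pass both thresholds of the methods. The 7 probes called had SDs within genotype of 0.61 to 2.35, whereas the median over all retained probes was 0.19. These 7 hold both probes of Bfsp1 and both of Bfsp2, so the count repeats these genes.

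The spread between arrays of the same labelled genotype was wide for these genes. Those of Mip and of the Bfsp1 probe A_51_P129038 include values that were not well above background on arrays labelled Mrp4-null, so their SDs and percentiles are descriptions of the signals as read. The SD within genotype of Mip, 2.35, was at the 99.99th percentile of all retained probes, that of Lim2, 1.37, at the 99.94th, and those of both Bfsp1 probes, 1.07 and 0.93, at the 99.85th and 99.72nd. Lgsn was at the 99.2nd percentile and the Bfsp2 probes at the 98.6th and 98.2nd. Grifin had the smallest SD, 0.48, at the 94.5th percentile. Abcc4 was at the 58.6th. The crystallins, with 1 probe a gene, had a median percentile of 99.7, against 99.4 for the 6 lens fibre genes. Cryba1 was at the 99.95th and Cryaa at the 99.93rd, but Cryab was at the 90.7th, Crygc at the 75.6th and Cryga at the 70.9th. The wide spread was thus shared with most of them. Within the WT arrays alone, which share genotype and slide row, the highest array exceeded the lowest 12.2-fold for Mip, 7.19-fold for Lim2, 5.55-fold for Bfsp1 (A_55_P2003903), 4.23-fold for Lgsn, 3.28-fold for Bfsp2 (A_51_P298802) and 2.19-fold for Grifin. In whole retina, fewer cells of a type and less RNA per cell cannot be told apart.

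**Figure D3:**
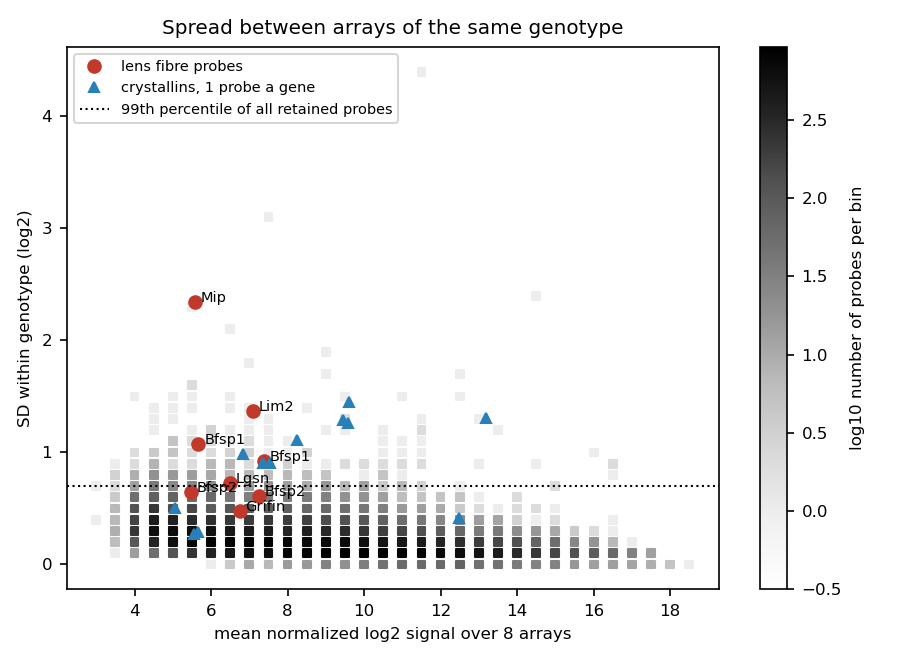
SD within genotype (vertical axis) against the mean normalized log2 signal (horizontal axis) for all retained probes, shown as grey bins shaded by the number of probes, with the lens fibre probes as circles and the crystallins as triangles. Mip, Lim2, Lgsn and both Bfsp1 probes lie above the 99th percentile of all probes (dotted line, 0.70), and the Bfsp2 probes and Grifin lie below it.

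The order of the arrays was shared by most of the genes. The second WT array was the highest of the 8 on all 8 retained probes, and the first WT array was among the upper 2 on 5 of them. The second array labelled Mrp4-null was among the lowest 2 on 7 probes and the first on 6. The mean over the 6 genes, with 1 probe a gene, was 5.47, 5.05, 6.34 and 7.15 under the knockout label and 7.75, 8.64, 6.33 and 7.31 in WT, and it includes values of Mip that were not detected on the first and the second array labelled Mrp4-null. Without Mip the mean over the other 5 genes was 6.07, 5.74, 6.59 and 6.94 under the knockout label and 7.89, 8.65, 6.61 and 7.45 in WT. On both scales the third WT array was level with the third array labelled Mrp4-null, and the fourth array labelled Mrp4-null was below the fourth WT array.

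The fourth array labelled Mrp4-null parted the genes from each other. It ranked second of 8 for Mip, Lim2 and Grifin, and Gja3 (A_52_P17582) also had its second highest processed signal there. On the same array Lgsn had its lowest signal of all 8, and Bfsp1 (A_55_P2003903) was at 6.69 against 7.42 on the first array labelled Mrp4-null. Over the 8 arrays Lim2 followed Mip closely, with Pearson's r = 0.978 and Spearman's rank correlation = 0.976, and r = 0.978 without the 2 arrays farthest from the Mip median. Bfsp2 and Grifin had r = 0.943. Lgsn and Mip had r = 0.602 and a rank correlation of 0.476, and r = 0.313 without those 2 arrays. The 15 pairs of the 6 genes had r between 0.602 and 0.978, with a median of 0.844, and after subtraction of the group means between 0.380 and 0.971. These values describe 8 arrays on which all genes share the same RNA samples.

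**Figure D4:**
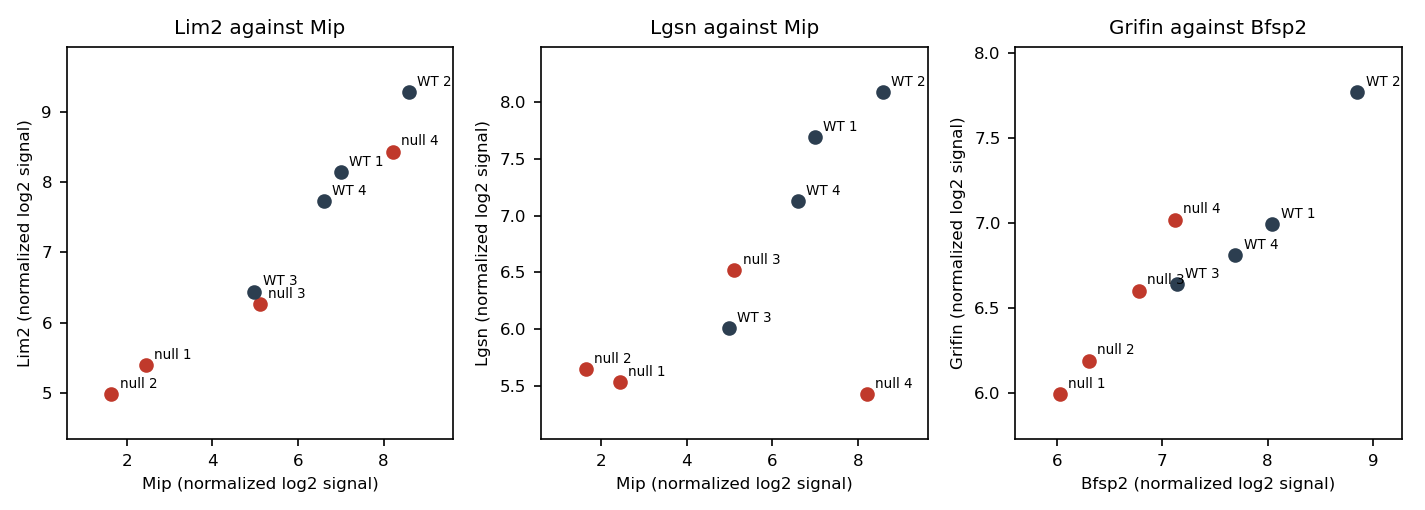
Normalized log2 signals of pairs of lens fibre genes on the 8 arrays (both axes), red for arrays labelled Mrp4-null and dark for WT. Lim2 follows Mip along 1 line (r = 0.978), whereas Lgsn does not on the fourth array labelled Mrp4-null, where Mip is at 8.21 and Lgsn at 5.43.

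The crystallins, the soluble proteins that fill the fibre cell, varied over the arrays much as several of these genes did. Of 16 listed crystallin genes, 12 had a retained probe, and Crygb, Cryge, Crygf and Crygn did not. All 12 were lower on average under the knockout label, with a median log2 difference of -1.22. Limma called 0 of them, against 0.545% of all retained probes. An unadjusted p under 0.05 was found for 2, against 6.46%. Their summed linear signal was 7715 to 31194 under the knockout label and 13778 to 64477 in WT, and its part in the values of the lens fibre genes was not tested. All 12 were highest on the second WT array, as the lens fibre genes were. Mip, which was not detected on 2 arrays labelled Mrp4-null, had r = 0.980 with Cryba1, a beta crystallin, and 0.973 with Cryaa, αA-crystallin. Among the gamma crystallins it had 0.941 with Crygs, 0.729 with Crygc and 0.432 with Crygd, the lowest of the 12. With Cryba1, Bfsp1 (A_55_P2003903) had r = 0.752 and Lgsn 0.697.

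Each lens fibre probe was also read relative to the mean of the 12 crystallins on the same array, a scale chosen after the data had been seen. For Mip and the Bfsp1 probe A_51_P129038 this includes values that were not detected on arrays labelled Mrp4-null, so their values are descriptions of the signals as read. On this scale the log2 difference was -1.43 for Mip, -0.63 for Lim2, -0.50 and -0.52 for Bfsp1, -0.37 and -0.39 for Bfsp2 and -0.44 for Lgsn, and it was 0.40 for Grifin. The crystallin mean was 7.88 under the knockout label and 8.88 in WT, so the scale moves each probe by the same 1.01, and a change of sign for the probe with the smallest difference follows from it. The groups overlapped on all 8 probes, and exact two-sided permutation tests gave p between 0.114 and 0.571. Among the WT arrays the SD relative to the crystallins was 0.09 to 0.65 over the 8 probes, against 0.50 to 1.48 on the first scale. Under the knockout label it was 0.40 to 2.14, against 0.45 to 2.97, with the undetected values of Mip at the upper end of both. There the SD of the Bfsp1 probe A_55_P2003903 went from 0.77 to 1.00, that of the Bfsp1 probe A_51_P129038 from 0.96 to 0.98 and that of Lgsn from 0.50 to 0.93, all wider relative to the crystallins, while the other 5 were narrower.

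Among 23636 named probes of other genes, those with a profile most like the mean of the 6 lens fibre genes included many crystallins. This mean is weighted to Mip and Lim2, which varied most, and it includes the undetected values of Mip. By Pearson's r over the 8 arrays, the 10 nearest genes were Cryba4 (0.987), Crybb1 (0.987), Gm11837 (0.986), Crygs (0.985), Cryba2 (0.979), Sec11a (0.977), D10Wsu102e (0.972), Cryba1 (0.969), Cryaa (0.967) and Crybb2 (0.967). Of these, 7 are crystallins, but with Mip left out of the mean, a choice made after seeing the data, 3 of the 10 nearest were crystallins (Crygs, Crybb1 and Cryba4), and the nearest was Gm11837 at 0.972. The crystallins named here ranged over 3.10 to 4.78 log2 units between arrays, Gm11837 over 1.82, and Sec11a and D10Wsu102e over 0.35 and 0.36. After subtraction of the group means 7 of the 10 nearest were again crystallins, with Crybb1 first at 0.992, and the other 3 were Shq1, Gm11837 and Prkca. An r above 0.9 was reached by 10 of the 15 crystallin probes and by 48 of the other probes compared, and after that subtraction by 11 and 113. With Mip left out of the mean, and no subtraction, it was reached by 11 crystallin probes and 42 others. Gene by gene, crystallins made up 5 of the 5 nearest genes for Grifin, 4 for Lim2, 3 for Mip, 2 for Bfsp2, 1 for Lgsn and 0 for Bfsp1. The gene nearest to Bfsp1 was Gapdh, a glycolytic enzyme, at r = 0.974, and the one nearest to Lgsn was Tshz2 at 0.978.

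**Figure D5:**
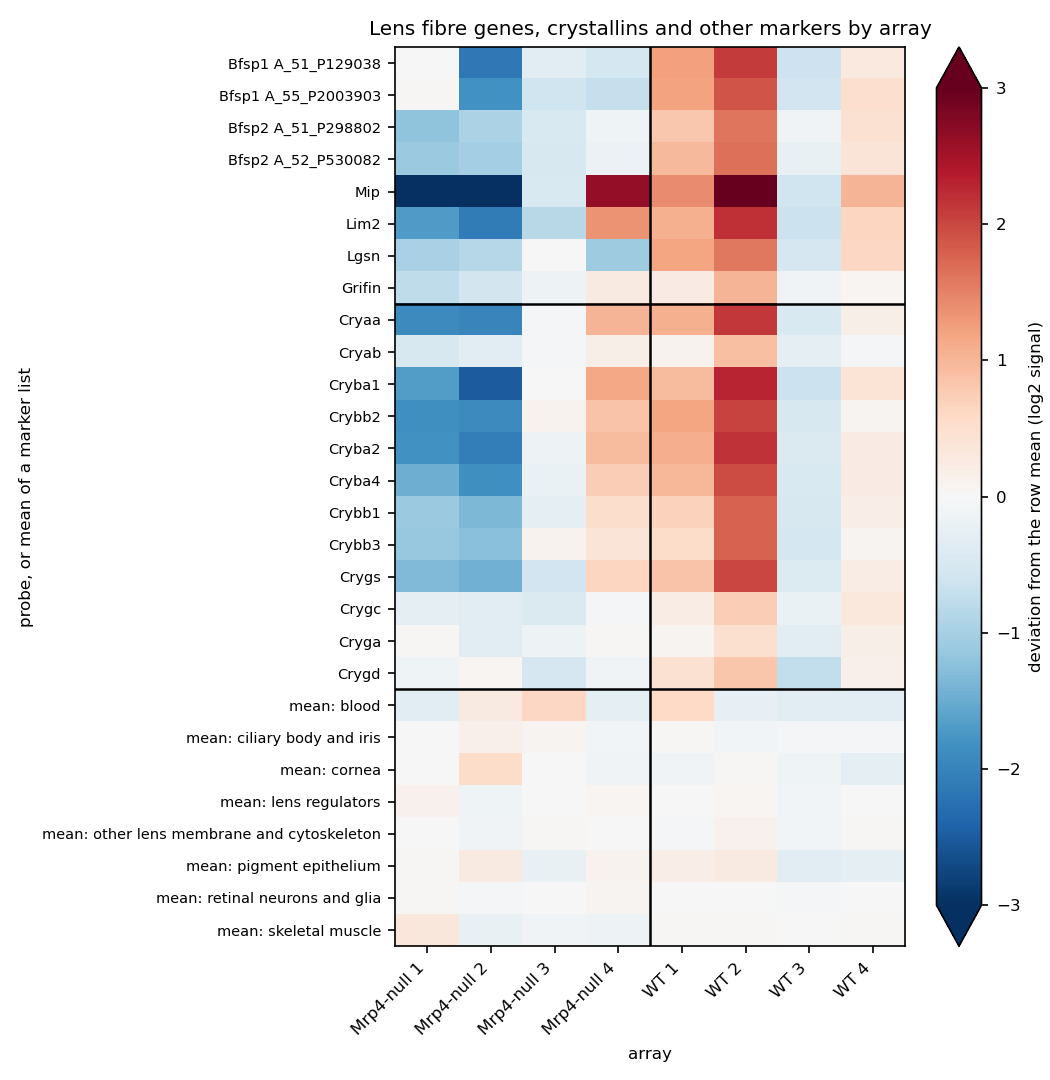
Deviation of each row from its own mean over the 8 arrays (colour, log2 signal; horizontal axis, arrays) for the 8 lens fibre probes, the 12 crystallins and the means of 8 further marker lists. The lens fibre and crystallin rows are highest on WT 2, Mrp4-null 2 is among the lowest 2 arrays on 7 of the 8 lens fibre probes and Mrp4-null 1 on 6, and Lgsn is low on Mrp4-null 4 where Mip and Lim2 are high. Among the other lists blood spans 10.92 to 11.89 and cornea 5.48 to 6.31.

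Other genes of fibre cell membranes and cytoskeleton had smaller differences. Of 20 such genes, many of which the retina also expresses, 17 had a retained probe, limma called 0, 2 had an unadjusted p under 0.05, and the median log2 difference was 0.0042. Over all retained probes 0.545% were called and 6.46% had an unadjusted p under 0.05. The lowest was Lctl, a klotho-related gene, at -0.44 (SE 0.37, limma adjusted p = 1.00), and the highest was Ppl, which encodes periplakin, at 0.27 (SE 0.12, limma adjusted p = 0.768). Aqp5, a water channel of the lens and other epithelia, named after its value was seen, was at -0.37 (SE 0.10, limma adjusted p = 0.295) with groups that did not overlap. Dnase2b, the nuclease that degrades fibre cell nuclei, and Gja1 were among those with no retained probe. Of 12 regulators of lens development, 10 were retained and 0 were called, with a median of -0.05 and 1 unadjusted p under 0.05. Hsf4, a heat shock factor of fibre cells, was lowest at -0.14 (SE 0.12), and Caprin2, an RNA-binding protein, was highest at 0.47 (SE 0.14, limma adjusted p = 0.431). Foxe3, which marks the lens epithelium, and Gata3 were not retained.

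Markers of other tissues that can adhere to a dissected retina were read in the same way. Limma called 0 of 10 pigment epithelium genes and 0 of 6 of the ciliary body and iris. It also called 0 of 4 of the cornea, 0 of 4 of skeletal muscle and 0 of 4 of blood. With 0.545% of all retained probes called, lists this short say little. An unadjusted p under 0.05 was found for 1 of these genes, against 6.46% of all retained probes. It was Wfdc1 of the ciliary body list at 0.38 (SE 0.14, limma adjusted p = 0.616), which was named after its value was seen. The list medians were 0.19, 0.03, 0.27, -0.03 and 0.17. Some of the listed genes had high signals, such as Aqp1 of the ciliary body list (14.39 under the knockout label, 14.47 in WT). Pvalb of the muscle list was at 11.90 and 12.11. Whether the retina itself gave these signals was not tested. The list mean of pigment epithelium was 7.48 to 7.97 under the knockout label and 7.38 to 7.96 in WT. For the cornea it was 5.66 to 6.31 against 5.48 to 5.79. The highest cornea mean, 6.31, was on the second knockout-labelled array. Pigment epithelium was at 7.97 there and at 7.96 on the second WT array, which was highest for the lens fibre genes.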

How the data were processed

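Retinal RNA was measured on 8 one-color Cy3 arrays, 4 per labelled genotype. The authors deposited the scanner output of Agilent Feature Extraction 11.0.1.1, with the signal intensity of each spot background-subtracted and detrended within the array but not normalized between arrays. Their table of values holds the mean of the same intensity per probe, within a relative difference of 1.46e-07, on a linear scale. Gene names and promoters came from RefSeq tables (GRCm38.p6), newer than the build of the array design, with 58.3% of the probes named. Probe sequences were not used here.

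Controls and outlier spots (78 to 143 per array) were left out, no spot was saturated, and the log2 intensity was averaged per probe. Probes were retained (37085) when each measured array of 1 group, at least 3 of them, was well above background and the other group had 2 or more measured arrays, and were then quantile normalized. Limma 3.58.1 in R 4.3.3 tested genotype, with Benjamini-Hochberg adjustment over all retained probes. The LPE test was written for this work, with bins of 0.01 and a spline of 10 degrees of freedom. Both were tested on simulated data. Single probes were also compared with an exact permutation test. Lists use 1 probe a gene, that of highest mean signal. Every probe of the 7 genes is named, with Abcc4, examples from the extremes and defining markers of lists, and the 10 genes of most similar profile. The members and lists were chosen with earlier results of these data known. Alternatives were other normalizations, background corrections, filters, tests and thresholds, the sample number as a block, and each array left out. The number of arrays limits the precision.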

Additional observations from a re-analysis of the deposited data

How the results depend on the processing

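The lens fibre probes stayed uncalled under the other normalizations, background correction, filters, thresholds and limma settings tried and with each array left out (0 of the retained lens fibre probes in each), and only the LPE test called any, 7 of 8. Their median log2 difference kept its sign throughout, between -1.91 and -1.11 with 1 array left out, lowest without the third WT array and smallest in size without the second, and -0.83 with the normexp background correction. With the second knockout-labelled array and the third WT array both left out, a choice made after seeing the data, it was -1.61, and -1.45 with dim values set to the detection floor, also chosen later. For Mip the log2 difference was -1.54 with the second knockout-labelled array left out. No retained lens fibre probe reversed in sign under these alternatives. Over all retained probes limma called 202, and 116 to 185 with 1 array left out, 124 without both arrays named above, and 106 at a fold change of at least 2. The sample number was also the column of the slide in both groups. With it as a block limma called 71 probes over all and 0 lens fibre probes. Deviations from the group means had correlations of -0.69 to 0.41 between samples of the same number. The causes were not tested. Probes near the detection limit, Mip and Gja3 above all, bound what can be said of the arrays on which they were dim.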
